A study of Mus musculus with 10 samples.

Results

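The 49 genes described here encode the proteins that hold epithelial cells together and give them an upper and a lower side: claudins, other tight junction proteins, adherens junction and desmosome proteins, membrane serine proteases and their inhibitors, splice and transcription factors of epithelia, and polarity proteins. They were listed by name, with earlier results of these data known. All 49 were found among the 55359 genes measured, and each averaged 1 or more normalized counts over 10 tumors, as did 24560 genes in all. Their RNA was compared between 2 groups of 5 orthotopic pancreatic tumors each. The D30 tumors grew in mice made hyperglycemic by 14 days on drinking water with 30% dextrose, and the CTRL tumors in normoglycemic mice on regular water. All 10 tumors came from the KPC K8484 cell line, a single mouse pancreatic cancer line with the heterozygous allele Trp53 R172H and Pdx1-Cre, a Cre driven by a pancreatic promoter. The cells also expressed luciferase and were injected into the pancreas of immunocompetent C57BL/6 mice (C57BL/6 J in the methods) at 10 weeks of age. The sample titles name the tumors PDX, whereas the source label names KPC K8484 cells. Males and females were used in equal numbers, and the sex of the mouse behind each tumor was not given.

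The tumors are named by their table columns, N1, N2, N4, N5 and N6 for CTRL and T1, T2, T4, T5 and T7 for D30, and values of single tumors are listed in that order. A normalized count is the number of reads of a gene divided by 1 size factor per tumor. Between 29915331 and 42122304 reads stood behind a CTRL tumor and between 29192261 and 37126175 behind a D30 tumor. Bulk RNA does not tell fewer cells of a type from less RNA per cell, and nothing in the labels gives the tumor cell share of a sample. One D30 tumor, T4, stood apart. Protein-coding genes with a mean of at least 100 were compared by the summed length of their annotated exons. In T4 the long genes, with at least 6000 bases, were lower than the short ones, with under 2000 bases. The median of the long genes minus that of the short ones was −1.18 on the log2 scale relative to the other D30 tumors. It ran from −0.50 to 0.60 in the other 9 tumors, each relative to the rest of its group. Results that rest on T4 are therefore given with and without it.

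In an epithelium, claudins form the paired strands of the tight junction and set which ions and solutes pass between cells, while occludin, JAM-A and the ZO scaffolds tie these strands to the cytoskeleton. Below them lie the adherens junction, built on E-cadherin, and the desmosome, in which desmogleins and desmocollins are coupled through plakophilins, plakoglobin and desmoplakin to keratin filaments. The Crumbs and Par complexes mark the apical side. Pancreatic ductal tumors keep these genes to very different degrees, and transcription factors of the Snail and Zeb families are known to repress several of them through E2 boxes.

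The stretches before the gene start are shown for 4 members whose RNA differed between the groups. They were searched for the E2 box CAGGTG and its reverse complement CACCTG, and each holds at least 1 copy. For a gene with several listed starts, the start with the most boxes in its window was taken, and the first listed on a tie. These 4 are the only ones among the 9 members past the test with an entry in the promoter table of RefSeq (GRCm38.p6). The 250 bases upstream of the start are printed on the strand of the gene, with the boxes in capitals. They lie at chr7:29281978-29282227 on the minus strand for Spint2, chr17:57061951-57062200 on the plus strand for Crb3, chr10:81291268-81291517 on the minus strand for Tjp3 and chr11:69965171-69965420 on the plus strand for Cldn7, which is the second start listed for that gene. The window of the first start of Cldn7 holds 0 boxes.
Spint2: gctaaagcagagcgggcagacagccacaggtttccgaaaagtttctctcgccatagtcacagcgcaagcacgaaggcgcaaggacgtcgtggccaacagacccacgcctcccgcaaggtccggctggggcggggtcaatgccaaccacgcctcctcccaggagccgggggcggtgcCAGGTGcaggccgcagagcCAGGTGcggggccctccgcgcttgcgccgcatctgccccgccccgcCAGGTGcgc
Crb3: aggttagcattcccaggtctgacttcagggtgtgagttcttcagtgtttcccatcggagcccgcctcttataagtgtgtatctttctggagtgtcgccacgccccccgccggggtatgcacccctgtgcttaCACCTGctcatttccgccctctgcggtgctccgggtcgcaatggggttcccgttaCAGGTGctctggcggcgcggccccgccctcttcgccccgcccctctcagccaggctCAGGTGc
Tjp3: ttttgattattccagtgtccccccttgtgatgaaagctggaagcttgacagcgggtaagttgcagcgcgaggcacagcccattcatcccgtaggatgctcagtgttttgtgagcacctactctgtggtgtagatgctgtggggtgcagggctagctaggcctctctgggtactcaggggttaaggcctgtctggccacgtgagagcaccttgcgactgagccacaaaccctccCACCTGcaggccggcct
Cldn7: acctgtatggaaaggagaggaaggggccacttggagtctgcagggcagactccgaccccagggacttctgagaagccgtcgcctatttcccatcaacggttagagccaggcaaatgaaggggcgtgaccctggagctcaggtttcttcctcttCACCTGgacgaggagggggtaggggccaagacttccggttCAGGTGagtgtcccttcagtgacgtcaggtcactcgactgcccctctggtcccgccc

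Spint2 and Crb3 each held 3 boxes in this stretch, Cldn7 held 2 and Tjp3 held 1. Of the 49 members, 28 had an entry, with 40 windows of 300 bases (250 before and 50 after the start). The E2 box, searched on both strands, lay in at least 1 window of 16 of the 28 (57.1%). The same held for 6098 of all 27025 genes in the table (22.6%), which had 32851 windows. The shares were not adjusted for the number of windows per gene. The windows of the members were richer in G and C, with a median of 60.7% against 52.7% over all windows. The grainyhead site AACCGGTT, which is its own reverse complement, was in 0 of 28 members and in 47 of all genes (0.2%). A match is only a match of letters. The box stood before genes that were higher in D30 (Spint2, Crb3, Tjp3) and before one that was lower (Cldn7).

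More junction genes rose than fell in D30 tumors. The protease inhibitor Spint2, the desmosomal proteins Dsg2 and Pkp3 and the transcription factor Ovol1 rose, and the splice factor Esrp1 fell, whichever single tumor was left out. Under limma with Benjamini-Hochberg adjustment over 24560 genes, 9 of the 49 members passed an adjusted p of 0.05. That was 18.4% of the members, beside 2.76% of all genes tested. Because the list was chosen with earlier results of these data known, these shares are a description and not a test of the list. The 7 that rose were Spint2, Dsg2, Pkp3, Ovol1, Crb3, Tjp3 and Cldn9, while 1.40% of all genes rose. The 2 that fell were Esrp1 and Cldn7, while 1.36% of all genes fell. The other 40 did not pass. An unadjusted p under 0.05 was found for 25 of the 49, beside 17.3% of all genes.

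In sign alone, 35 members had a positive and 14 a negative log2 fold change, with a median of 0.44 over the 49 and of −0.065 over all genes tested. Scaling by library size shifted the median of all genes to −0.27 and that of the members to 0.22, turned the small positive values of Cldn18, Marveld2, Jup, Esrp2 and Ovol2 negative, and called 4 members higher and 3 lower, beside 3.51% of all genes, of which 240 of 864 were higher. edgeR on the recovered reads called 10 members higher and 0 lower among the 44 it tested, beside 4.13% of all genes it tested. Its filter for low counts left out Cldn3, Cldn7, Cldn8, Esrp1 and Ovol2. Both members that fell in limma, Esrp1 and Cldn7, were therefore not tested by edgeR. DESeq2 called 15 higher and 4 lower, beside 8.30%, and all 9 of the limma calls were among these 19. The others were Cldn23, Ocln, F11r, Pkp1, Pkp2, Dsc2, Elf3 and Rab25 on the higher and Cldn3 and Grhl2 on the lower side. The values of the groups did not overlap for 9 members (18.4%, beside 6.19% of all genes), 7 of them higher in D30 (beside 2.87%) and 2 lower (beside 3.32%). These were Tjp3, F11r, Pkp3, Dsg2, Spint2, Ovol1 and Crb3 on the higher side and Cldn7 and Esrp1 on the lower side. Each of these reached p = 0.00794 in the two-sided exact permutation test, the smallest p that 5 tumors against 5 allow. Cldn9 passed limma although its groups overlapped, and F11r did not overlap but missed the adjusted threshold.

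**Figure D1:**
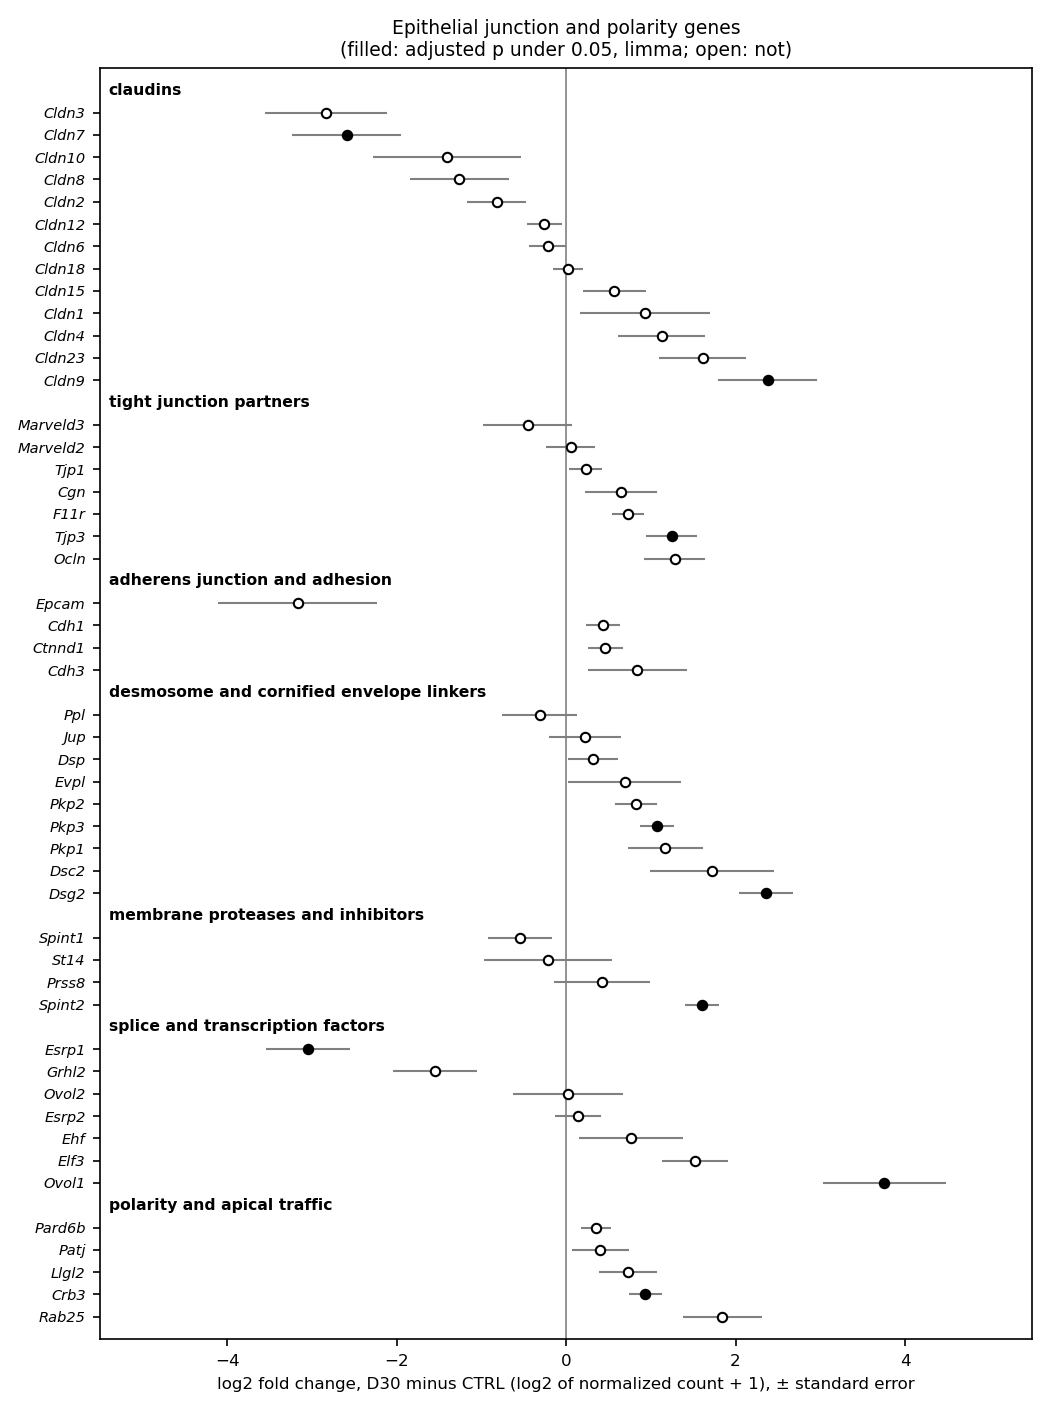
Log2 fold change of each of the 49 genes (D30 minus CTRL, on log2 of the normalized count + 1, 5 tumors per group) with its standard error, grouped by role. Filled points passed an adjusted p of 0.05 in limma: 7 lie to the right of 0 and 2, Cldn7 and Esrp1, to the left.

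The claudins moved apart, with 1 rise and 1 fall among 13. Cldn7, a claudin found along the sides of many epithelial cells, stood at 45.2, 34.0, 21.0, 6.20 and 14.6 normalized counts in the CTRL tumors and at 4.11, 4.58, 2.31, 0 and 4.26 in the D30 tumors. Every D30 tumor lay below every CTRL tumor, and T5 had no read. Cldn7 fell by 2.59 on the log2 scale (SE 0.64, limma adjusted p just under 0.05), from 24.2 ± 15.5 to 3.05 ± 1.92 normalized counts (mean ± SD, n = 5 each), with 137 reads over the CTRL tumors and 14 over the D30 tumors. The ratio of these reads was 0.129 after size factors, with an exact 95% interval of 0.0689 to 0.225 that covers counting error only.

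Cldn9, a close paralog of Cldn6 with the gene next to it, stood at 36.8, 7.23, 29.2, 17.7 and 18.8 normalized counts in the CTRL tumors and at 106, 179.8, 24.3, 141 and 192 in the D30 tumors. The T4 value lay among the CTRL tumors and the other D30 tumors lay above all of them. Cldn9 rose from 22.0 ± 11.4 to 128 ± 67.4 normalized counts (mean ± SD, n = 5 each), by a log2 fold change of 2.38 (SE 0.58) with a limma adjusted p of 0.0491. Without T4 the adjusted p was 0.00233, and it lay between 0.0550 and 0.141 when any other tumor was left out, so that this call and that of Cldn7 hang on single tumors. Cldn7 passed only without N5 or without T4 among the 10 leave-one-out fits.

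The claudins that carried most of the RNA did not change by the test. Per kilobase of exon, Cldn6 (6764 normalized counts), Cldn2 (6345) and Cldn18 (3322) made up 39.6%, 37.1% and 19.4% of the summed level of the 13 claudins. Cldn6 is an embryonic claudin, Cldn2 forms a cation and water channel, and Cldn18 is the claudin of stomach and of many pancreatic tumors. Cldn2 stood at 21066, 25132, 26624, 29009 and 26715 normalized counts in the CTRL tumors and at 24251, 20196, 7082, 7933 and 22958 in the D30 tumors. T4 and T5 lay below all other tumors, the remaining D30 tumors lay within or just below the CTRL range, and the log2 fold change was −0.82 (SE 0.35) with a limma adjusted p of 0.242. Cldn6 (−0.22, SE 0.22) and Cldn18 (0.02, SE 0.18) had adjusted p values of 0.666 and 0.965. The sign of Cldn18 turned negative under library size scaling.

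Cldn3, a barrier-forming claudin, had the lowest log2 fold change of the claudins at −2.83 (SE 0.72), with 137 reads over CTRL and 12 over D30, and missed the threshold at an adjusted p of 0.0560. T4, at 6.94, lay above the lowest CTRL tumor, N5, at 5.31, and this was the whole of the overlap. Cldn8 had 12 reads over the CTRL tumors and 0 over the D30 tumors, and a count of 0 allows up to 3 reads. Among those on the higher side, Cldn23 (1.61, SE 0.52, adjusted p = 0.124, limma) and Cldn4 (1.13, SE 0.52, adjusted p = 0.282, limma) did not pass. Cldn4 stood at 826 in T4 and between 141 and 228 in the other D30 tumors. The remaining claudins, Cldn1, Cldn10, Cldn12 and Cldn15, had log2 fold changes of 0.93, −1.41, −0.26 and 0.57 without passing. The median over the 13 claudins, that of Cldn6, was −0.22, and it does not depend on the fitted value of Cldn8.

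Neighbouring claudin genes had log2 fold changes of opposite sign (distances from GENCODE M21, GRCm38). Cldn6 and Cldn9 lie 0.138 kb apart on chromosome 17 with log2 fold changes of −0.22 and 2.38, and over the 10 tumors their log2 levels had a Pearson r of −0.12. Cldn3 and Cldn4, 39.3 kb apart on chromosome 5, had values of −2.84 and 1.13 and likewise an r of −0.12. Of these claudins only Cldn9 passed limma with all tumors. The sign of Cldn6 turned without N2, N4, N6 and T4, where its log2 fold change was 0.13. Ocln and Marveld2 on chromosome 13 had an r of 0.64, and Cdh1 and Cdh3 on chromosome 8 one of 0.20. These correlations are descriptions over 10 tumors that include both groups.

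Of the 7 tight junction partners, 1 rose, Tjp3, and the median log2 fold change was 0.65. Tjp3 encodes ZO-3, a scaffold under the tight junction. It stood at 1386, 784, 1523, 1469.6 and 1628 normalized counts in the CTRL tumors and at 4368, 4556, 2092, 1821 and 3942 in the D30 tumors. T4 and T5 were the lowest D30 tumors and N2 was low within CTRL, but the groups did not overlap. Tjp3 rose from 1358 ± 333 to 3356 ± 1299.9 normalized counts (mean ± SD, n = 5 each), by a log2 fold change of 1.25 (SE 0.30) with a limma adjusted p of 0.0448. It passed in 2 of the 10 leave-one-out fits, without T4 (0.0118) and without T5 (0.0185).

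F11r encodes JAM-A, an adhesion molecule of the immunoglobulin family that helps to place the tight junction. It stood at 7509, 6515, 7681, 6609 and 6611 normalized counts in the CTRL tumors and at 10338, 9138, 17405, 11921 and 10518 in the D30 tumors. Each D30 tumor lay above each CTRL tumor, and T4 was the highest. The log2 fold change was 0.73 (SE 0.19) with a limma adjusted p of 0.0643, and 0.0230 without T4. Occludin (Ocln, 1.28, SE 0.36, adjusted p = 0.0791 in limma) ran from 343 to 946 in CTRL and from 753 to 3000 in D30, the latter in T4. Cingulin (Cgn, 0.65, SE 0.42) stood at 984 in T4 and at 2735 to 5333 in the other D30 tumors. It had a limma adjusted p of 0.469, and of 0.0305 without T4. Tjp1, encoding ZO-1, tricellulin (Marveld2) and its relative Marveld3 had log2 fold changes of 0.23, 0.05 and −0.46 and did not pass.

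None of the 4 adherens junction and adhesion genes passed the test in limma, 3 of them had an unadjusted p under 0.05, and DESeq2 and edgeR called none. Cdh1, which encodes E-cadherin, was the most abundant of them per length and stood at 15241, 15543, 21618, 20298 and 17754 normalized counts in the CTRL tumors and at 33811, 25425, 19815, 21079 and 23499 in the D30 tumors. T4 and T5 lay within the CTRL range and the other D30 tumors above it, and the log2 fold change was 0.44 (SE 0.20) with a limma adjusted p of 0.282. Epcam, an adhesion protein that binds claudins, stood at 192, 88.9, 43.9, 15.9 and 85.6 normalized counts in the CTRL tumors and at 6.17, 0, 62.5, 3.43 and 8.52 in the D30 tumors. The other D30 tumors lay below all CTRL tumors, while T4 lay within the CTRL range. Its log2 fold change of −3.17 (SE 0.94) had a limma adjusted p of 0.0990, and of 0.00902 without T4. Ctnnd1 (p120 catenin, 0.46, SE 0.21) and Cdh3 (P-cadherin, 0.84, SE 0.58) did not pass. Without T4 Ctnnd1 had an adjusted p of 0.0368.

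The desmosome gave 2 rises and no fall among 9 genes, with a median log2 fold change of 0.82. Dsg2, the desmoglein of simple epithelia, stood at 564, 326, 1009.6, 608 and 759 normalized counts in the CTRL tumors and at 2586, 3778, 4123, 4198 and 1819 in the D30 tumors. The lowest D30 tumor, T7, was still above the highest CTRL tumor, N4. Dsg2 rose from 653 ± 253 to 3301 ± 1050.5 normalized counts (mean ± SD, n = 5 each), by a log2 fold change of 2.36 (SE 0.32) with a limma adjusted p of 0.00224, and it passed in all 10 leave-one-out fits and without the 4 tumors richest in acinar RNA. T4 was among the high tumors for Dsg2 even though its exons span 8268 bases.

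Pkp3, a plakophilin that clusters desmosomal proteins, stood at 1361, 1248, 2509, 1881 and 1916 normalized counts in the CTRL tumors and at 3783, 3857, 3611, 3401 and 3483 in the D30 tumors. The D30 tumors lay close together and N4 was nearest to them. Pkp3 rose from 1783 ± 504 to 3627 ± 193 normalized counts (mean ± SD, n = 5 each), by a log2 fold change of 1.07 (SE 0.20) with a limma adjusted p of 0.0136, and it passed in all 10 leave-one-out fits. Jup, encoding plakoglobin, the most abundant gene of the list per length, stood at 6116, 10125, 14165, 12217 and 11104 normalized counts in the CTRL tumors and at 18592, 16038, 3347, 14838 and 17437 in the D30 tumors. T4 lay below all other tumors and the other D30 tumors above all CTRL tumors. With T4 included the log2 fold change was 0.22 (SE 0.42) and the limma adjusted p 0.836, and without T4 the adjusted p was 0.0764. Among the fits run, Jup passed only when N1 was left out together with T4.

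The other desmosomal genes did not pass limma with all tumors, while DESeq2 called Pkp1, Pkp2 and Dsc2 higher (adjusted p = 0.0225, 0.0253 and 0.00428). Pkp2 had a log2 fold change of 0.82 (SE 0.25), Pkp1 of 1.17 (SE 0.44), the desmocollin Dsc2 of 1.72 (SE 0.73) and desmoplakin (Dsp) of 0.32 (SE 0.30). Dsc2 was at 5.78 in T4, below the CTRL range of 7.31 to 11.5, at 9.16 in T5, within it, and at 60.7 to 109 in T1, T2 and T7. The plakins Evpl and Ppl, which link desmosomes to the cornified envelope of stratified epithelia, had log2 fold changes of 0.69 (SE 0.67) and −0.31 (SE 0.44). Evpl stood at 68.2 in T4 and between 915 and 1102 in the other D30 tumors, all above the CTRL maximum of 539. Without T4, Pkp2, Evpl and Dsc2 had limma adjusted p values of 0.0138, 0.00890 and 0.0446.

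Spint2 had the smallest p of all members. It encodes HAI-2, a Kunitz-type inhibitor of the membrane proteases matriptase and prostasin, and stood at 9422, 7115, 12505, 9345 and 10016 normalized counts in the CTRL tumors and at 22382, 31881, 34112, 25260.2 and 33049.7 in the D30 tumors. The lowest D30 tumor, T1, was well above the highest CTRL tumor, N4. Spint2 rose from 9680.5 ± 1927 to 29337 ± 5197 normalized counts (mean ± SD, n = 5 each), by a log2 fold change of 1.60 (SE 0.20) with a limma adjusted p of 0.00178, and it passed in all 10 leave-one-out fits. Per kilobase of exon its mean level was 2125 in CTRL and 6439 in D30, where it lay beside Cldn6 (6287).

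The proteases themselves did not rise or fall by the test. Prss8, prostasin, stood at 137 to 202 in CTRL, at 522, 438 and 522 in T1, T2 and T7 and at 79.8 and 68.7 in T4 and T5, for a log2 fold change of 0.42 (SE 0.56). St14, matriptase, stood at 312 in T1 and between 11.5 and 38.4 in the other D30 tumors, beside 21.3 to 74.5 in CTRL. Its sign turned with the method, with −0.22 in limma and 0.80 in edgeR and DESeq2. The related inhibitor Spint1 (HAI-1) had a log2 fold change of −0.55 (SE 0.38) and was at 64.1 in T5.

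Among 7 splice and transcription factors, Ovol1 rose and Esrp1 fell. Ovol1, a zinc finger factor of differentiating epithelia, stood at 2.10, 5.78, 8.22, 13.3 and 1.71 normalized counts in the CTRL tumors and at 139.8, 253, 16.2, 43.5 and 122 in the D30 tumors. T4 at 16.2 was the D30 tumor closest to CTRL, where N5 at 13.3 was the highest, and the groups did not overlap. Ovol1 rose from 6.22 ± 4.78 to 115 ± 93.0 normalized counts (mean ± SD, n = 5 each), by a log2 fold change of 3.76 (SE 0.72) with a limma adjusted p of 0.0150, and it passed in all 10 leave-one-out fits. On the opposite strand Gm31166 shares 690 bases (19.8%) of its exons, and since the study does not say whether reads were counted by strand, reads in that stretch cannot be told apart. Gm31166 itself ran from 28.4 to 76.1 in CTRL and from 34.7 to 109.9 in D30.

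Esrp1, a splicing regulator that keeps the epithelial forms of many transcripts, stood at 10.5, 12.3, 4.57, 5.31 and 14.6 normalized counts in the CTRL tumors and at 0, 0, 1.16, 0 and 0 in the D30 tumors. It had 55 reads over the CTRL tumors and 1 over the D30 tumors, that in T4. The ratio after size factors was 0.0230, with an exact 95% interval of 0.000573 to 0.134 for counting error. Esrp1 fell by 3.05 on the log2 scale in limma (SE 0.50, adjusted p = 0.00656), and it passed in all 10 leave-one-out fits. The level was low in both groups. Per kilobase of exon Esrp1 averaged 0.767 normalized counts over the 10 tumors and its paralog Esrp2 518. Esrp2 stood at 2101 ± 459 normalized counts in CTRL and 2395 ± 793 in D30, and did not pass (log2 fold change 0.14, SE 0.27).

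Elf3, an Ets factor of simple epithelia, was the most abundant regulator per length and stood at 3257, 2574, 5619, 3921 and 4578 normalized counts in the CTRL tumors and at 13027, 14982, 3488, 16954 and 14355 in the D30 tumors. T4 lay within CTRL and the other D30 tumors lay above all CTRL tumors. The log2 fold change was 1.52 (SE 0.39) with a limma adjusted p of 0.0559, and 0.000254 without T4. Ehf, a relative of Elf3, had a log2 fold change of 0.77 (SE 0.62), with 164 in T4, 347 in T5 and 1266 to 2470 in the other D30 tumors. Grhl2, a grainyhead factor that activates junction genes, had one of −1.55 (SE 0.50) with a limma adjusted p of 0.125, and 271 reads in CTRL against 67 in D30. Ovol2 had a mean of 1.68 normalized counts and a log2 fold change of 0.02 whose sign turned under library size scaling and a smaller pseudocount.

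All 5 polarity and apical traffic genes had positive log2 fold changes, with a median of 0.73, and 1 of them, Crb3, rose. Crb3 is the Crumbs protein of mammalian epithelia and stood at 1023, 910.1, 1376, 1133 and 1252 normalized counts in the CTRL tumors and at 1943, 2632, 1943, 1762 and 2654 in the D30 tumors. The D30 tumors all lay above N4, the highest CTRL tumor. Crb3 rose from 1139 ± 184 to 2187 ± 423 normalized counts (mean ± SD, n = 5 each), by a log2 fold change of 0.94 (SE 0.19) with a limma adjusted p of 0.0207, and it passed in 4 of the 10 leave-one-out fits. Patj, a scaffold that joins the Crumbs complex, stood at 1494, 2127, 2788, 3098 and 2358 normalized counts in the CTRL tumors and at 4354, 4172, 1190.2, 3658 and 3332 in the D30 tumors. T4 was below all other tumors while the other D30 tumors lay above all CTRL tumors, and the log2 fold change was 0.41 (SE 0.34) with a limma adjusted p of 0.583, and of 0.0431 without T4.

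Rab25, a small GTPase of apical recycling, missed the threshold at a log2 fold change of 1.85 (SE 0.47) and a limma adjusted p of 0.0549. T4 at 28.9 lay just below N1 at 29.5, and the other D30 tumors ran from 58.4 to 188. Llgl2, a basolateral polarity protein, had a log2 fold change of 0.73 (SE 0.34) and an adjusted p of 0.295 in limma, and of 0.00717 without T4. Pard6b, of the Par complex, had a log2 fold change of 0.36 (SE 0.18) and did not pass with or without T4.

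**Figure D2:**
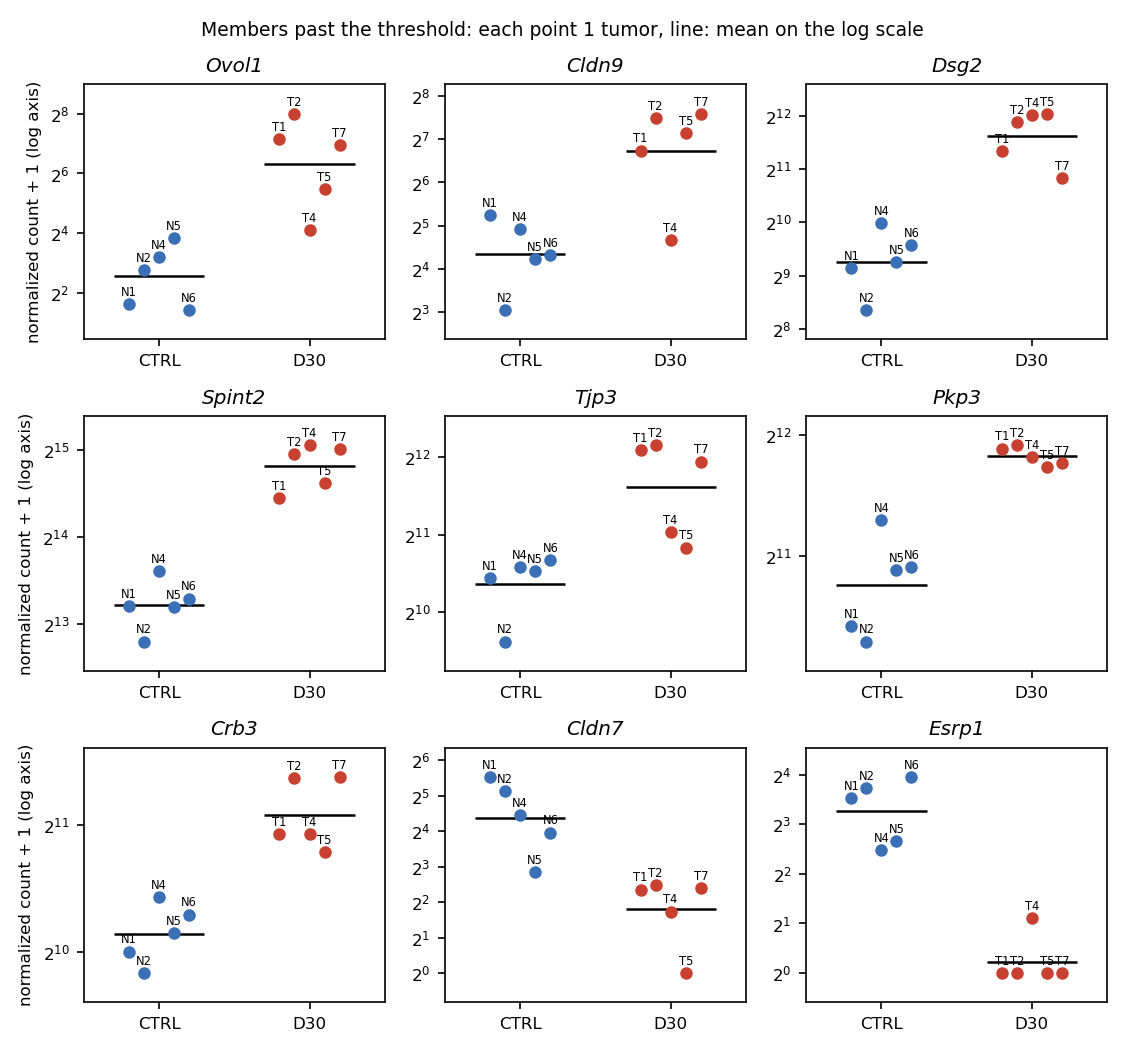
Normalized count + 1 (log axis) of the 9 members past the threshold, 1 point per tumor and a line at the group mean on the log scale. The groups do not overlap for 8 of them. For Cldn9 the T4 value of 24.3 lies among the CTRL tumors.

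By level, 24 members averaged 1000 normalized counts or more, and 20 of these had a positive log2 fold change (Cldn18, Jup and Esrp2 not so under library size scaling), with a median of 0.45 and 5 past the threshold. Between 100 and 1000 there were 7 members, of which 6 were on the positive side and 0 passed limma (2 had an unadjusted p under 0.05, DESeq2 called 1 and edgeR 0). Below 100 there were 18, split 9 to 9, with a median of −0.10 and 4 past the threshold. The low members also spanned the widest range of log2 fold changes, from −3.17 to 3.76. Both calls on the lower side, Esrp1 and Cldn7, lay below 100.

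Over the 10 tumors, Crb3 (Pearson r 0.956), Dsg2 (0.942), Pkp3 (0.940), F11r (0.858) and Ocln (0.832) had the log2 levels most like those of Spint2. The least alike were Esrp1 (−0.916), Cldn7 (−0.770) and Cldn3 (−0.752). These are descriptions over tumors of both groups, and the groups themselves differ in most of these genes.

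**Figure D3:**
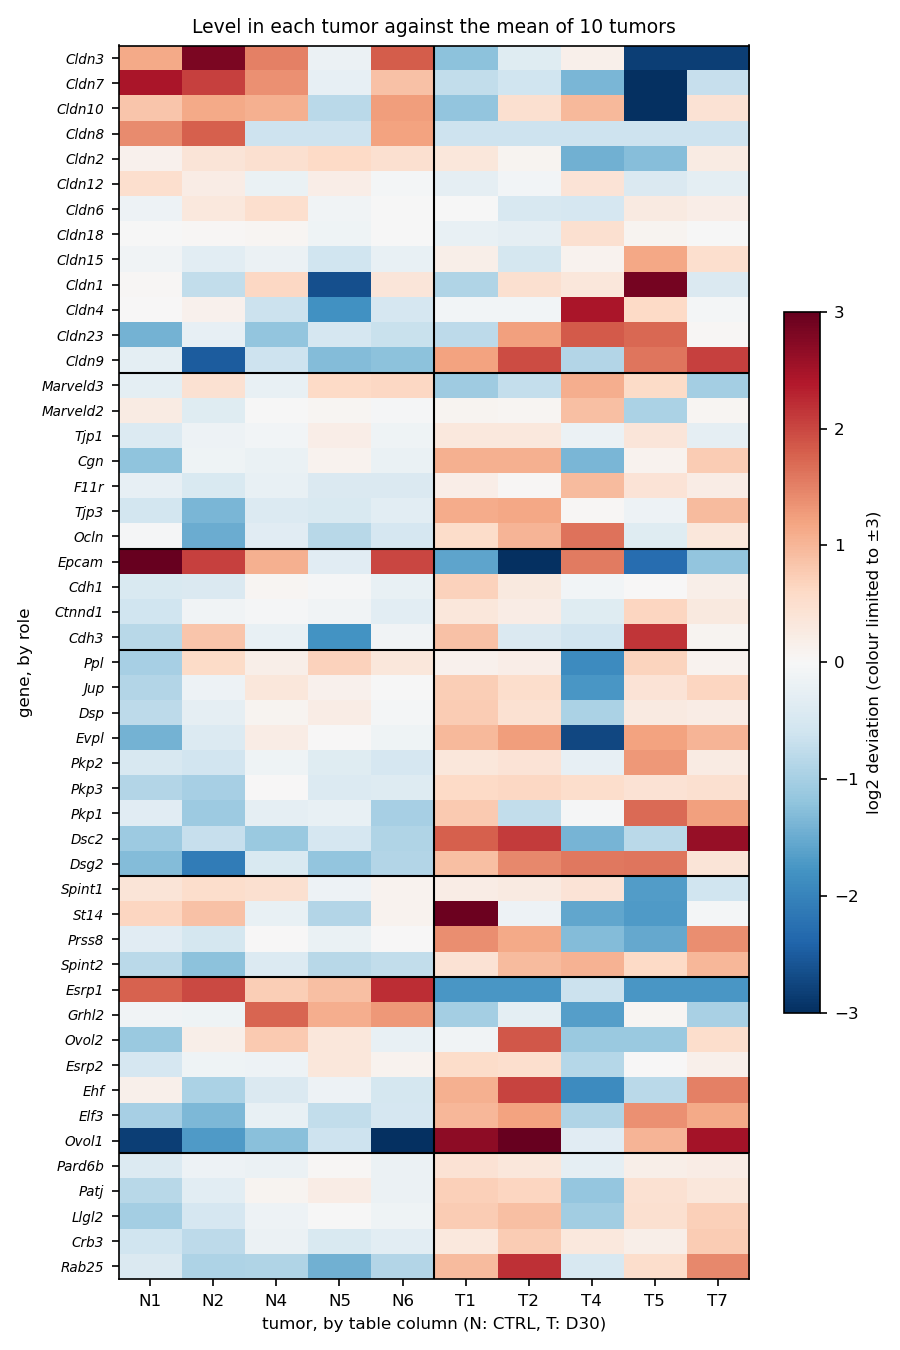
Log2 level of each of the 49 genes in each tumor against its mean over the 10 tumors, with genes grouped by role and a line between CTRL (N) and D30 (T) columns. Red is above and blue below the mean, and T4 is the D30 column in which Evpl, Jup, Ppl, Patj and Llgl2 are blue.

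T4 often lay at one end of the D30 group. The median log2 deviation of the members from their mean over all tumors was −0.35 in T4 and 0.26 to 0.41 in the other D30 tumors, beside −0.41 to −0.14 in CTRL. T4 was the lowest of the 5 D30 tumors for 22 members and the highest for 14. Among the 25 members with at least 4000 bases of exon it was the lowest for 15, with a median of −1.10 on the log2 scale against the other D30 tumors. Among the 24 shorter members it was the lowest for 7, with a median of −0.13. For the 31 members with a mean of at least 100, the deviation of T4 had an r of −0.36 with log2 exon length. Exceptions ran both ways, as Dsg2 and Ocln were high in T4 and Elf3 and Prss8, which are short, were low. The part of RNA quality in these values was not tested.

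**Figure D4:**
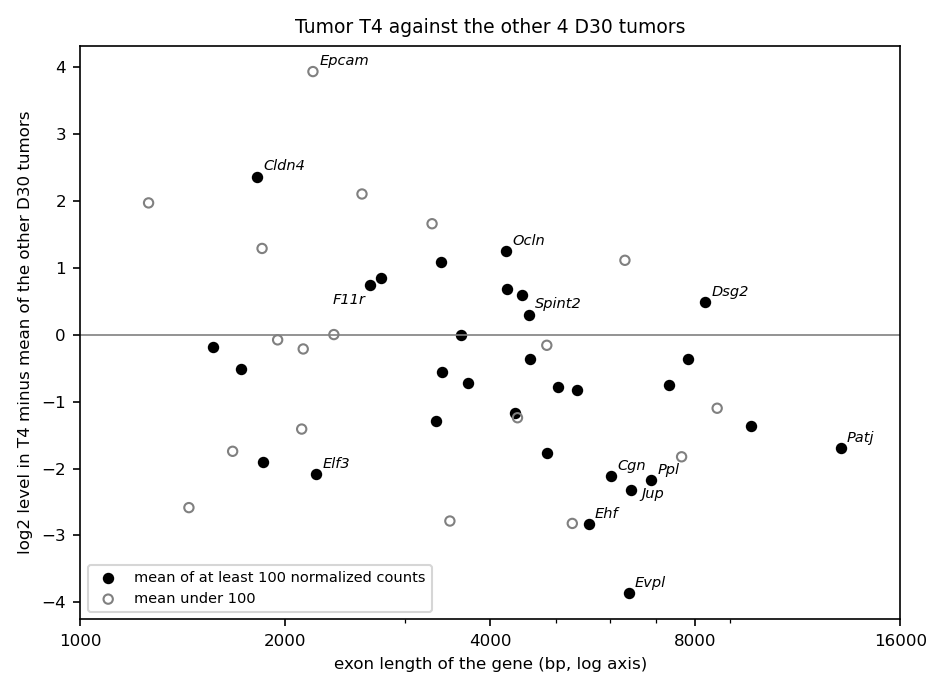
Log2 level in T4 minus the mean of the other 4 D30 tumors for each of the 49 genes, against exon length in bases on a log axis. Filled points average 100 normalized counts or more. Of the 25 genes with at least 4000 bases, 15 were lowest in T4 among the D30 tumors.

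Without T4, 21 members passed limma, 17 higher and 4 lower, beside 6.43% of all genes. All 9 members called with every tumor were among them, and Cgn, F11r, Ctnnd1, Pkp2, Evpl, Dsc2, Elf3, Rab25, Llgl2, Patj, Cldn3 and Epcam came in addition. N1 and T4 were the tumors of each group in which genes with a long exon length were lowest against short ones. Without both, 21 members passed as well, 18 higher and 3 lower, beside 6.49% of all genes. Leaving out any other single tumor gave 5 to 8, beside 1.14% to 3.54% of all genes.

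Among the marker genes of simple, squamous and intestinal epithelium, 1 passed limma. The summed keratins of simple epithelium (Krt7, Krt8, Krt18 and Krt19) ran from 189577 to 313811 normalized counts in CTRL and from 315846 to 454438 in D30, with 4 of 4 genes on the positive side. None of the 4 passed limma, all 4 had an unadjusted p under 0.05, DESeq2 called 2 and edgeR 0. Each of the 4 keratins was abundant in every tumor. Of 12 intestinal epithelial markers, 9 were on the positive side and 1, Phgr1, rose, while Lgr5 was lower in D30 without overlap (log2 fold change −2.15, limma adjusted p = 0.0634). Their sum ran from 67433 to 106005 in CTRL and from 125286 to 287879 in D30. The largest part of it was Lgals4, with a mean of 45757.5 in CTRL and 126026.8 in D30. The groups overlapped for Lgals4, and it did not pass (limma adjusted p = 0.0565). The 8 squamous markers summed to 7741 to 10792 in CTRL and to 4440 to 13073 in D30, with 0 called in limma, 3 at an unadjusted p under 0.05, 2 called in DESeq2 and 0 in edgeR. Mesothelial markers, which tumor cells can share, summed to 35581 to 43181 and to 28634 to 97714, with 0 called in limma, 1 at an unadjusted p under 0.05 and 1 called by each of the other tools. Almost all of the mesothelial sum was Msln.

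Markers of normal pancreas were uneven. The sum of 12 acinar markers was 31687 in N2, 68988 in N6, 6749 in T4 and 3497 in N4, and between 149 and 869 in the other tumors. None of the 12 passed limma, edgeR or DESeq2, 4 had an unadjusted p under 0.05, and Amy2a5 was at 0 in all D30 tumors. The 6 islet markers summed to 13.3 to 1415 in CTRL and to 0 to 15.0 in D30, with 4 lower past limma and with Sst and Iapp at 0 in all D30 tumors. Without N2, N4, N6 and T4, the tumors with the most acinar RNA, 3 members passed (Dsg2, Elf3 and Spint2, beside 0.530% of all genes), in a fit with 2 CTRL and 4 D30 tumors. In that fit Esrp1 kept a log2 fold change of −3.09 with a limma adjusted p of 0.161, Ovol1 one of 4.15 with 0.0636, and Cldn7 one of −2.38 with 0.408. Epithelial cells of the normal pancreas express Esrp1, Cldn3, Cldn7 and Epcam themselves. The part of admixed pancreas in the values of these genes was not tested.

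Stromal sums lay lower in D30, with overlap for macrophages and fibroblasts. The 6 endothelial markers summed to 10725 to 18063 in CTRL and to 5624 to 8816 in D30, the 5 macrophage markers to 12473 to 19341 and to 7820 to 14027, and the 7 fibroblast markers to 76308 to 135218 and to 26700.3 to 102388. Most of the endothelial sum was Cdh5, which averaged 11945 in CTRL and 4437 in D30 without overlap, whereas the other 5 endothelial markers each overlapped and Cldn5 had a log2 fold change of 0.33. Of these lists Cdh5 and Csf1r fell in limma. None of the fibroblast markers passed, 5 had an unadjusted p under 0.05, and DESeq2 called 2 and edgeR 0. The 5 T cell markers summed to 142.5 to 344 and to 113 to 184. The 4 adipocyte markers summed to 276 to 2124 and to 249 to 993.5, with Lep at 0 in D30. In both of these lists 0 genes passed limma, edgeR or DESeq2, and 0 had an unadjusted p under 0.05. The 4 hepatocyte markers summed to 1074 to 3560 and to 468 to 1228, with Alb and Ttr lower in limma and Serpina1a at 0 in D30. The share of epithelial cells behind the member values was not tested, and more tumor cells and more junction RNA per tumor cell cannot be told apart in these samples.

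**Figure D5:**
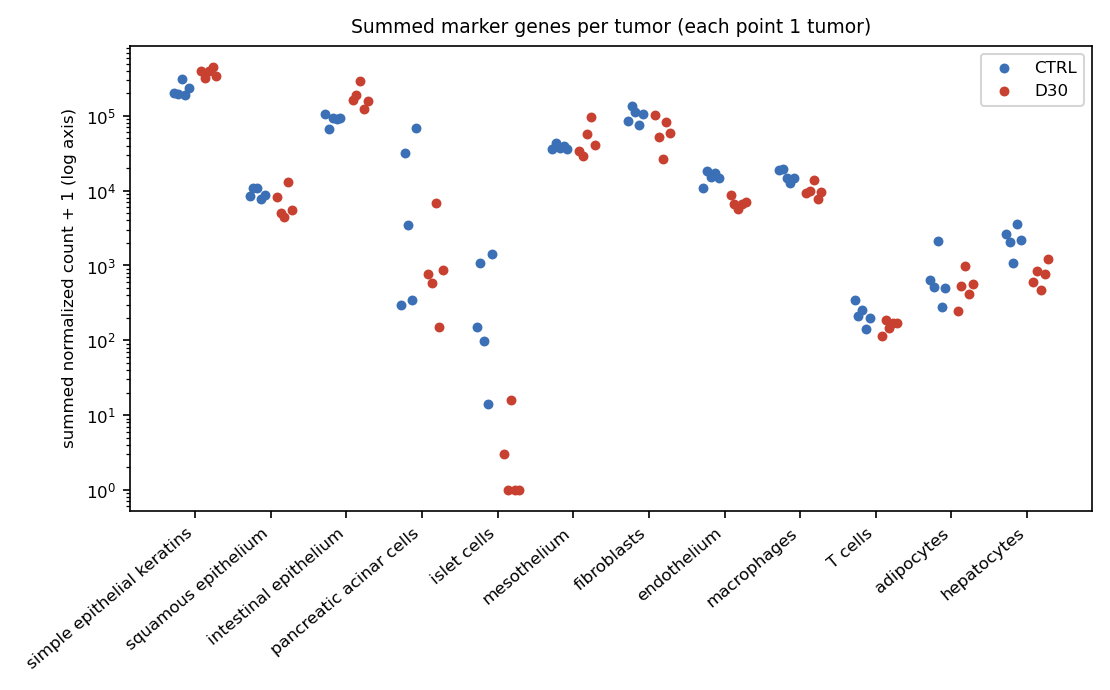
Summed normalized counts + 1 of 12 marker lists on a log axis, 1 point per tumor, CTRL in blue and D30 in red. The sums of simple keratins and of intestinal markers, with Lgals4 as the largest part, lie higher in D30 without overlap. Those of endothelium, mostly Cdh5, lie lower in D30 without overlap, while acinar sums spread from 149 to 68988.

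Of a wider list of 82 junction, polarity and epithelial genes outside the 49, 73 had a mean of at least 1. Of these, 5 passed (6.85%, beside 2.76% of all genes tested), 4 higher (beside 1.40%) and 1 lower (beside 1.36%). The median log2 fold change was 0.08, or −0.14 under library size scaling. The 22 wider tight junction genes gave 1 fall, the 14 adherens junction genes and the 4 desmosome genes gave 0 calls in limma with 1 and 2 unadjusted p values under 0.05 (DESeq2 called 0 and 2, edgeR 0 of both), the 21 polarity genes gave 1 rise, and the 12 epithelial regulators gave 3 rises.

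Tmprss4, a membrane serine protease, rose from 51.8 ± 31.0 to 1001 ± 621 normalized counts, by a log2 fold change of 4.45 (SE 0.66, limma adjusted p = 0.00431). Tmprss2, a relative of it, rose from 7626 ± 1249 to 13728 ± 2497, by 0.84 (SE 0.20, limma adjusted p = 0.0387). Tmc4, of the transmembrane channel-like family, rose by 2.26 (SE 0.34, limma adjusted p = 0.00431). Prkcz, an atypical protein kinase C of the Par complex, rose from 199 ± 41.7 to 557 ± 159.8, by 1.46 (SE 0.25, limma adjusted p = 0.00863). Prkci, the other such kinase and more abundant per length, did not pass (0.31, SE 0.17, limma adjusted p = 0.388). Jam2, a junctional adhesion molecule best known from endothelium, fell by 1.76 on the log2 scale (SE 0.27, limma adjusted p = 0.00456). The part of endothelial cells in this value was not tested.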

How the data were processed

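RNA of 10 tumors, 5 per group, was sequenced in pairs from strand-specific libraries. According to the methods and the submitters' processing notes, reads were trimmed with Trim Galore, checked with FastQC and aligned with STAR 2.7.0e, and RSEM and DESeq2 are also named. The notes name GRCm39 and the methods hg38, while the table lists mouse Ensembl identifiers. The annotation release and counting by strand are not given in the sources used here. The values deposited are normalized signals, in which the authors had divided each read count by a size factor of its tumor. Undoing that factor gave whole reads for 100.0% of values above 0 (tolerance 0.01), 29192261 to 42122304 per tumor. The precision at low counts follows from these reads, and intervals cover counting error only.

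N columns were taken as CTRL by their letter and T columns as D30 as the only other group. Column numbers differ from the replicate numbers in the labels, so no column was tied to a single animal. Nothing in the labels states whether littermates or cages were shared, and p-values measure the spread between these tumors. Identifiers were named with GENCODE M21 (GRCm38), which covered 94.1% of 55359 genes and gave exon lengths.

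limma 3.58.1 (R 4.3.3), with a mean-variance trend, was fitted to log2(normalized count + 1) of the 24560 genes with a mean of at least 1, with Benjamini-Hochberg adjustment and a threshold of 0.05. Fold changes are on that scale and understate changes of low genes. Single genes were also compared by two-sided exact permutation. Count tests on the recovered reads (edgeR 4.0.16, DESeq2 1.42.0), other scalings, pseudocounts, filters and leave-one-out fits were alternatives.

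The members and gene lists were chosen with earlier results of these data known. Values of every tumor are given for members past the threshold, members whose groups do not overlap, and the member with the highest mean and with the smallest p in each role. Of the wider list the genes past the threshold are named. Promoter sequences come from RefSeq (GRCm38.p6).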

Additional observations from a re-analysis of the deposited data

Results flagged for a closer look

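Each of the 49 genes was checked in each group of 5 tumors for a single tumor far from the rest (its gap to the nearest other tumor, divided by the range of the group, above Dixon's 95% value). Of 98 such groups, 8 held one. Dixon's value is set to mark about 1 in 20 groups of normally distributed values. The normalized counts were not log-transformed here and need not follow that distribution, so no chance rate can be given. Of the 8, 5 concern T4, the tumor in which genes with a long exon length were low.

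In T4, Cldn4 stood at 825.8 normalized counts with the next D30 tumor at 227.8, and Epcam at 62.5 with the next at 8.52. Jup stood at 3347 in T4 with the next D30 tumor at 14838, and Evpl at 68.2 with the next at 915. Esrp1 stood at 1.16 in T4, which is 1 read, with all other D30 tumors at 0, a pattern that this check always marks. In T5, Cldn1 stood at 124.8 with the next D30 tumor at 22.9. In T1, St14 stood at 311.5 with the next at 38.4. In the CTRL tumor N2, Tjp3 stood at 783.6 with the next CTRL tumor at 1386.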

How the results depend on the processing

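The number of members past the threshold was 9, beside 2.76% of all genes tested, and the share of all genes moved with the setting. It was 19 with DESeq2 (beside 8.30%), 21 without N1 and T4 (beside 6.49%) and 3 without N2, N4, N6 and T4 (beside 0.530%). The number of members ran from 5 to 21 when single tumors were left out (beside 1.14% to 6.43%), the highest without T4. The sets of N1 and T4 and of N2, N4, N6 and T4 were chosen after seeing the data. The other scalings, pseudocounts, filters and edgeR gave 6 to 11 members, beside 1.82% to 4.13% of all genes tested. The median log2 fold change of the members, 0.44, was 0.82 with edgeR, 0.68 with DESeq2 and 0.77 without N2, N4, N6 and T4. It ran from 0.32 to 0.61 when single tumors were left out.

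Small values turned sign. Under library size scaling Cldn18 was at −0.20, Marveld2 at −0.17, Jup at −0.00023, Esrp2 at −0.086 and Ovol2 at −0.042, and with a pseudocount of 0.5 Ovol2 was at −0.078. St14 was at 0.80 with edgeR and at 0.80 with DESeq2. Without N1 and T4, Cldn18 was at −0.095, Marveld2 at −0.098 and St14 at 0.28. Without N2, N4, N6 and T4, Cldn6 was at 0.13, Cldn18 at −0.033, Marveld2 at −0.34, Ppl at 0.44 and St14 at 0.36. Over the leave-one-out fits Cldn18 ran from −0.094 to 0.091, Marveld2 from −0.17 to 0.30, Ppl from −0.60 to 0.12, St14 from −0.98 to 0.18 and Ovol2 from −0.45 to 0.30. None of these genes passed in limma with all tumors. The cause was not tested. Over all single members and alternatives, 892 values kept direction and side of the threshold, 50 lost and 46 gained it in the same direction, and 27 turned sign.

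No paired analysis was possible because the column numbers of the table are not the replicate numbers of the labels. Neither the labels nor the methods state that a CTRL and a D30 tumor with the same replicate number belong together. According to the methods, mice with tumors were randomized to the treatment conditions, so the groups were compared as unpaired. Depth limits Esrp1, Cldn7, Cldn3, Cldn8 and Ovol2 most, which had few reads in D30.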

Other observations

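The order of the most abundant claudins differed between the groups without a test past the threshold. Per kilobase of exon, Cldn2 had the highest mean level in CTRL, 7732 normalized counts, ahead of Cldn6 at 7240.1, while in D30 Cldn6 at 6287 lay ahead of Cldn2 at 4957. Cldn18 stood at 3268 in CTRL and 3376 in D30. The order of Cldn2 and Cldn6 within a group is not firm against the spread between tumors.

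Of the 73 genes of the wider list with a mean of at least 1, 10 had groups that did not overlap (13.7%, beside 6.19% of all genes), and 5 of these did not pass limma. They were chosen here after their values were seen. They were Perp, a desmosomal membrane protein (log2 fold change 0.96, limma adjusted p = 0.0861), Dsg3, a desmoglein of stratified epithelia (1.22, 0.140), and Rab17, a GTPase of polarized traffic (1.34, 0.0586), all higher in D30, and Ildr2 (−1.38, 0.0803) and Cldn20 (−0.82, 0.266), both lower. Nearest to the threshold among those that overlapped were Mal2 (3.21, 0.0541) and Mpdz (−0.86, 0.0715).

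Exons of several members overlap those of other annotated genes. Ctnnd1 shares 61.2% of its exon length with Gm28635 on the same strand, a gene listed at 0 in all tumors. On the opposite strand, Elf3 shares 7.31% with Gm26642, Prss8 6.59% with Kat8 and Tjp3 1.08% with Apba3.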
